A study of Mus musculus with 6 samples.

Results

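The 43 genes described here encode membrane proteins and enzymes of the lysosome (25 genes), the vacuolar proton pump that acidifies it (15 genes) and the TFEB family of transcription factors (3 genes). They were taken by gene symbol, with earlier results of these data known, and every probe that carried one of these symbols and was not a control spot was taken. All 43 were on the array, which holds 36693 gene names, and they had 87 of its 56605 probes. Of these, 81 probes passed the filter on dim signals and all 43 genes were among the 20689 genes tested.

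RNA came from LSK cells, the lineage-negative, Sca-1-positive and c-Kit-positive fraction of bone marrow that contains haematopoietic stem and progenitor cells. Cells were sorted from C57BL/6 mice at P6–P8, and each of 6 samples was hybridised to a 1-colour Agilent array, with 3 control and 3 Atg5f/f;Vav arrays. Control mice (Atg5w/w;VaviCre+) had no floxed Atg5 allele, Atg5f/f;Vav mice (Atg5f/f;VaviCre+) had both alleles floxed, and both groups carried the Vav-driven iCre recombinase, which is active in blood cells. Neither the labels nor the methods state whether a sample was 1 mouse or a pool, so n, SD and p-values refer to arrays, and the spread they measure may be technical.

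ATG5 is needed to attach LC3 to the membrane of the growing autophagosome, which later fuses with a lysosome. Inside the lysosome, acid-dependent peptidases, glycosidases and lipid-cleaving enzymes digest the cargo, and the proton pump maintains the low pH by coupling ATP hydrolysis in its V1 sector to proton transfer through its V0 sector in the membrane. TFEB, TFE3 and MITF bind E-box letters near the starts of many lysosomal genes, and their activity is known to depend largely on whether they are held in the cytoplasm by mTORC1 signalling, which an mRNA level does not show.

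To show which of the genes carry these letters, RefSeq promoter windows (GRCm38.p6, 250 bases before to 50 after the start of a transcript) were searched for CACGTG and for the longer TCACGTGA that contains it. Both read the same on either strand. A window was held for 35 of the 43 genes. CACGTG was in the windows of 12 of the 35 genes (34.3%), against 8.09% of the 27025 gene symbols with a window and 7.15% of all 32851 windows. TCACGTGA was in those of 7 of the 35 genes (20%), against 1.12% of gene symbols and 0.974% of windows. Every TCACGTGA match is given with 11 bases on either side, because the changes of these genes are read against it. The Lamp1 window had 4 separate CACGTG matches and no TCACGTGA, and is shown as a pair of stretches. Capitals mark the searched letters, each line runs 5′ to 3′ on the strand of the gene, and distances are counted from the first base of the transcript.
Lamp1, matches at −61 and −45: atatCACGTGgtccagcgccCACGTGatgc
Lamp1, matches at −28 and −15: actggCACGTGaccacatCACGTGcggaac
Mcoln1, match at −46: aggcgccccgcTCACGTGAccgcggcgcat
Ctsa, match at −13: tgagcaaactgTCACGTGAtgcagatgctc
Ctsa, match at 5: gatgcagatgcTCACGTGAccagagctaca
Ctsd, match at −99: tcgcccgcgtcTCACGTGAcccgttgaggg
Gla, match at −228: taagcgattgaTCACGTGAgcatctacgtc
Gla, match at −195: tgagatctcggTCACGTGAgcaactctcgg
Atp6v0d1, match at −4: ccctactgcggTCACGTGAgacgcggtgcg
Atp6v0e, match at 3: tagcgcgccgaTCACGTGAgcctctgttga
Atp6v1a, match at −132: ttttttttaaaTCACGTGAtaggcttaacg

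On GRCm38.p6 the Lamp1 stretches lie on the plus strand at chr8:13159096-13159125 and chr8:13159128-13159157. The Mcoln1 stretch is at chr8:3500462-3500491, those of Ctsa are at chr2:164833749-164833778 and chr2:164833766-164833795, and that of Atp6v0e is at chr17:26676387-26676416, all on the plus strand. On the minus strand, the Ctsd stretch is at chr7:142387908-142387937, those of Gla are at chrX:134601215-134601244 and chrX:134601182-134601211, that of Atp6v0d1 is at chr8:105566050-105566079 and that of Atp6v1a is at chr16:44139373-44139402. Ctsl, Gaa, Glb1 and Atp6v0b had CACGTG without the longer form. None of the 3 TFEB family genes had either in its window. A match of letters is a description and does not show that a factor is bound.

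The arrays shared 1 slide and 1 scan, with control arrays in slide row 1 and Atg5f/f;Vav arrays in slide row 2, so row and genotype cannot be told apart. Probes that the scanner software marked as well above background made up 57.6% to 58.2% of each control array and 51.6% to 54.8% of each Atg5f/f;Vav array. Atg5 had 1 probe, at base 2251 of the transcript (chromosome 10, 44083997 to 44084056 on mm9), whose log2 signal, relative to the array's 75th percentile, was 0.93 to 1.10 on the control arrays and 1.46 to 1.74 on those labelled Atg5f/f;Vav. Because the labels do not say which exon is removed, this probe does not test the deletion, and every direction below rests on the labels. Of 10 genes that mark LSK cells, all were well above background on every array. Of these, Ly6a, which encodes Sca-1, rose by 1.57 on the log2 scale in Atg5f/f;Vav cells (adjusted p = 0.00623 from limma), while Mecom, Hlf, Procr and Meis1, genes known from stem cells, fell by 1.75, 1.65, 1.56 and 0.78.

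Across the 43 genes, 11 rose in Atg5f/f;Vav LSK cells, 1 fell and 31 did not pass the threshold, an adjusted p of 0.05 in limma over all 32074 probes. Those that rose were Lamp1 and Lamp2, the peptidases Ctsd, Ctss and Ctsz, the pump subunits Atp6v0a1, Atp6v0c, Atp6v0e, Atp6v1e1 and Atp6v1h, and the factor Tfe3. Ctsh fell. The 11 that rose are 25.6% of the genes, where 18.7% of all genes tested passed in that direction. The single fall is 2.33%, where 15.3% of all genes passed downwards. Control and Atg5f/f;Vav signals were without overlap for 23 of the 43 genes (53.5%), close to the 56% of all genes tested. In bulk RNA, more RNA per cell and a larger share of cells that express a gene cannot be told apart.

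The median log2 difference (Atg5f/f;Vav minus control) over the 43 genes was 0.22, with a range of −0.74 to 0.98, against a median of −0.03 over all genes tested. Taken over the 43 genes, the median log2 signal stood at 1.93, 1.84 and 2.05 in controls and at 2.29, 2.23 and 2.48 in Atg5f/f;Vav cells, without overlap. Atg5f/f;Vav means were the higher ones for 34 of the 43 genes, but for 24 with quantile normalisation and for 22 when arrays were scaled to the 75th percentile of probes detected on every array. That last scaling lowers every difference by the same amount and moved the median of all genes to −0.24. The genes above the median of all genes numbered 34 of 43 in the values given here and 24 of 43 with quantile normalisation. With quantile normalisation 3 genes passed upwards and 4 downwards, where 2990 and 2323 of all 20689 genes tested did. With the other scaling 3 and 5 passed, where 2382 and 5998 of all genes did. Each of the 11 genes that rose had a higher Atg5f/f;Vav mean, and Ctsh a lower one, under every alternative that was run, but their sizes moved. The 11 differences were 0.34 to 0.98 in the values given here, 0.10 to 0.92 with quantile normalisation and 0.14 to 0.77 with the other scaling.

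The calls depended on control replicates 1 and 2. Without either of them none of the 43 genes passed, and calls across all genes were 0.962% and 0.769% of the genes tested. Of the 43 genes, 10 and 11 had an unadjusted p under 0.05 in limma. The share of all genes with such a p is not given. Leaving out any other array kept 5 to 8 genes upwards, of which 4 to 8 were among the 11. Of all 20689 genes tested, 2638 to 3474 passed upwards in those fits. Without control replicate 2 the log2 differences of the 11 genes were 0.30 to 0.95.

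**Figure D1:**
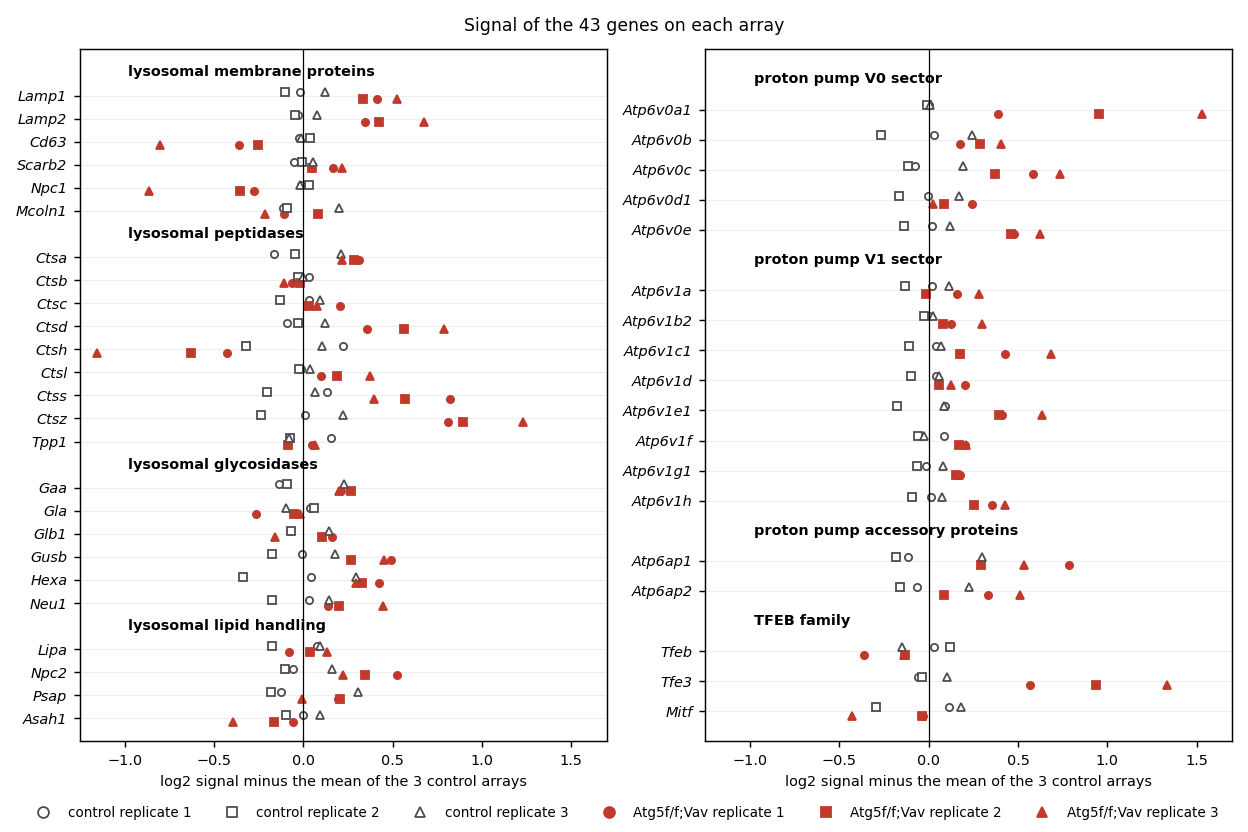
Log2 signal of each of the 43 genes on each array minus the mean of the 3 control arrays (horizontal axis), by role. Open grey symbols are control arrays, filled red symbols are Atg5f/f;Vav arrays, and the symbol's shape gives the replicate number. The red symbols of the 15 pump genes lie to the right of their control mean on average for all 15, a count that is 10 with quantile normalisation and 9 with the 75th percentile over detected probes.

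Among the 6 lysosomal membrane proteins, 2 rose and none fell (33.3% and 0%, against 18.7% and 15.3% of all genes). LAMP1 and LAMP2 are among the most abundant glycoproteins of the lysosomal membrane, and LAMP2 also serves in the fusion of autophagosomes with lysosomes. Log2 signals of Lamp1, relative to the array's 75th percentile, were 4.59, 4.50 and 4.72 in controls and 5.02, 4.94 and 5.13 in Atg5f/f;Vav cells. Every Atg5f/f;Vav array was above every control array. The rise was 0.42 ± 0.12 (standard error, n = 3 arrays per group), a fold of 1.34 (adjusted p = 0.0324). A second Lamp1 probe, at base 2052 of the transcript, gave 0.44 and passed as well. Lamp1 did not pass with quantile normalisation (0.10, adjusted p = 0.408) or with the 75th percentile over detected probes (0.22, adjusted p = 0.109). For Lamp2 the log2 signals were 1.95, 1.93 and 2.06 in controls and 2.32, 2.40 and 2.65 in Atg5f/f;Vav cells, again with no overlap. Lamp2 rose by 0.48 ± 0.13, a fold of 1.40 (adjusted p = 0.0289), whereas its 2 dimmer probes had differences of 0.32 and 0.20 and did not pass. It too was not past the threshold with those scalings (0.28 and 0.27, adjusted p = 0.0739 and 0.0758). On mm9 the representing probes lie on chromosome 8 from 13175277 to 13175336 and on chromosome X from 35772774 to 35772833.

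The remaining membrane proteins ran from −0.50 to 0.14 and did not pass. Cd63, a tetraspanin of lysosomes and secretory granules, had log2 signals of 3.65, 3.71 and 3.66 in controls and 3.32, 3.42 and 2.87 in Atg5f/f;Vav cells, with every Atg5f/f;Vav array below every control. Its difference of −0.47 had an unadjusted p of 0.0223 and an adjusted p of 0.0589 in limma. Npc1, which exports cholesterol from the lysosome, was also without overlap, with a difference of −0.50 and an adjusted p of 0.0590 (unadjusted p = 0.0223 in limma). Its 2 dimmer tested probes, designed to Ensembl transcripts other than the RefSeq one, gave −1.07 and −1.10 and passed. With quantile normalisation or the 75th percentile over detected probes, both Cd63 and Npc1 passed downwards. Scarb2, a receptor that sorts enzymes to lysosomes, differed by 0.14 on its brighter probe (adjusted p = 0.312), which was designed to a cDNA other than the RefSeq transcript. On the RefSeq transcript its other probe gave 0.78 (adjusted p = 0.0234). Mcoln1, the calcium channel mucolipin 1, differed by −0.08 (adjusted p = 0.677). Its dim second probe, at base 480, gave −0.79 (adjusted p = 0.0168 in limma) and the mean of both probes −0.43, past the threshold too. That probe was well above background on 3 control and 0 Atg5f/f;Vav arrays. It entered the test only through the controls, so neither value is support for a fall.

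Peptidases moved in both directions. Of 9 genes, Ctsz, Ctss and Ctsd rose (33.3%, against 18.7% of all genes) and Ctsh fell (11.1%, against 15.3%). The other 5 lay between −0.06 and 0.27. Ctsz, a carboxypeptidase of the cathepsin family, had log2 signals of 2.26, 2.01 and 2.47 in controls and 3.05, 3.14 and 3.47 in Atg5f/f;Vav cells. All Atg5f/f;Vav arrays were above all control arrays. It rose by 0.98 ± 0.17, a fold of 1.97 (adjusted p = 0.0154). Ctsz also passed with either alternative scaling and without a filter on dim probes.

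Ctss, an endopeptidase that trims the invariant chain in antigen-presenting cells, had log2 signals of 2.28, 1.94 and 2.21 in controls and 2.96, 2.71 and 2.54 in Atg5f/f;Vav cells. The groups did not overlap, and the rise was 0.60 ± 0.15, a fold of 1.51 (adjusted p = 0.0284). Ctsd, the main aspartic peptidase of lysosomes, was at 3.71, 3.77 and 3.92 in controls and at 4.15, 4.36 and 4.59 in Atg5f/f;Vav cells. It rose by 0.57 ± 0.14 with no overlap, a fold of 1.48 (adjusted p = 0.0263). With quantile normalisation Ctss and Ctsd had differences of 0.39 and 0.24, with the 75th percentile over detected probes 0.39 and 0.36, and neither passed (adjusted p = 0.0539 to 0.120). For Ctsz, Ctss and Ctsd there was 1 probe each, on mm9 chromosome 2 from 174253228 to 174253287, chromosome 3 from 95360162 to 95360221 and chromosome 7 from 149561962 to 149562021.

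Ctsh, an aminopeptidase, was the one gene of the 43 that fell. Its log2 signals were 1.79, 1.25 and 1.67 in controls and 1.14, 0.94 and 0.42 in Atg5f/f;Vav cells. Atg5f/f;Vav replicate 1 lay just below control replicate 2, the lowest control, and Atg5f/f;Vav replicate 3 was far below the other two. The difference was −0.74 ± 0.23, a fold of 0.60 (adjusted p = 0.0453). Its 3 dimmer tested probes gave −0.44, −0.91 and −0.997, and the second of these, designed to an Ensembl transcript, passed. When a single array was dropped, Ctsh differed by −0.90 to −0.53 and passed only if the dropped array was Atg5f/f;Vav replicate 1. The −0.53 was the value without Atg5f/f;Vav replicate 3. Ctsh passed with quantile normalisation (−0.85) and with the 75th percentile over detected probes (−0.94). It did not pass without a filter on dim probes, with the replicate number as a block or with the mean of its tested probes. The Ctsh probe lies on mm9 chromosome 9 from 89970828 to 89970887.

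Ctsa, Ctsb, Ctsc, Ctsl and Tpp1 did not pass, with adjusted p from 0.141 to 0.953. Ctsb and Tpp1, which encode the abundant cathepsin B and a tripeptidyl peptidase, had differences of −0.06 and 0.01 with overlapping groups. For Ctsc, which activates granule serine proteases, the probes disagreed, since the brightest gave 0.10 and the others −0.46 and −0.95, of which the last passed. Both of these others were designed to an Ensembl transcript other than the RefSeq one.

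None of the 6 glycosidases and none of the 4 genes of lipid handling passed in limma (against 18.7% of all genes upwards and 15.3% downwards). The methods' t-test called none of all 20689 genes tested after adjustment, so it tells nothing about these groups of genes. In each group 1 gene had an unadjusted p under 0.05 in limma. Gusb, β-glucuronidase, differed by 0.40 ± 0.13 with no overlap between groups (adjusted p = 0.0548). Its dimmer probe, designed to an Ensembl transcript, gave 0.47 and passed. Gusb itself passed under 7 alternatives, among them normexp (adjusted p = 0.0280), the deposited values and the replicate block, but with neither alternative scaling. Npc2, the soluble partner of NPC1 in cholesterol export, differed by 0.36 ± 0.13 (adjusted p = 0.0703), also without overlap, and passed with normexp and with an intensity trend. Hexa, Neu1, Gaa, Glb1, Psap, Lipa and Asah1 had overlapping groups and differences of −0.20 to 0.35. Of these, Asah1, acid ceramidase, passed downwards with the 75th percentile over detected probes (−0.41, adjusted p = 0.0459). A dim Gaa probe at base 1174 gave −0.99 and was well above background on 3 control and 0 Atg5f/f;Vav arrays. It entered the test only through the controls, so its adjusted p (0.00683 in limma) is no support for a fall. Gla, α-galactosidase A, differed by −0.11 with overlap. Its single probe on mm9 chromosome X, from 131122895 to 131122954, is on the strand opposite to Rpl36a, a ribosomal protein gene with a probe from 131122514 to 131122573, and is reported as uncertain for that reason.

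**Figure D2:**
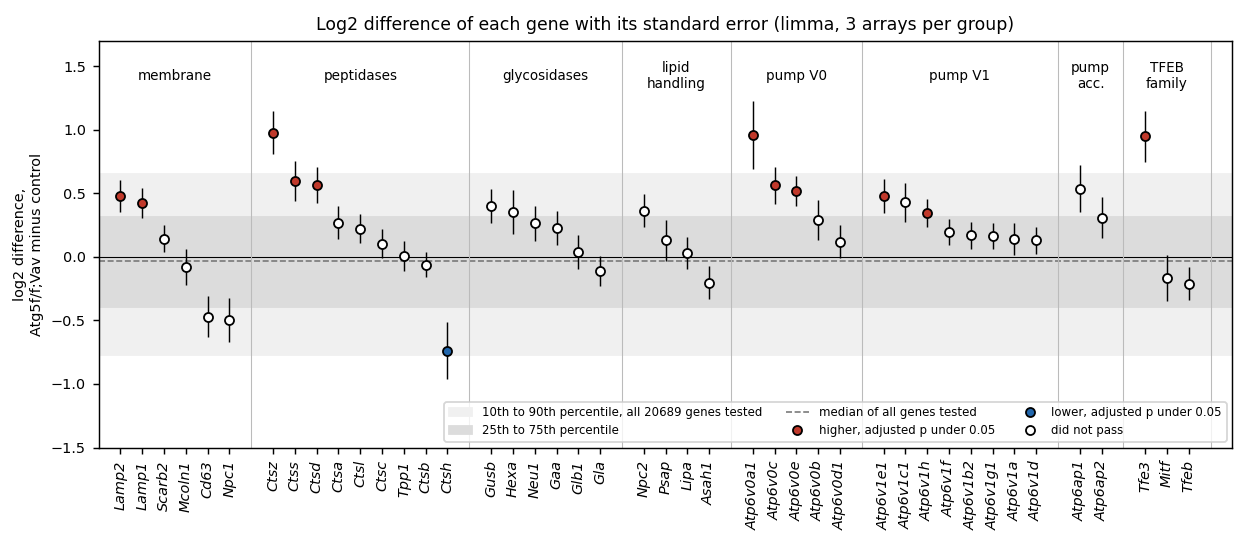
Log2 difference (Atg5f/f;Vav minus control) of each gene, with its standard error as the bar, by role and in falling order. Red points rose and the blue point fell at an adjusted p of 0.05, open points did not pass, and the grey bands run from the 10th to the 90th and from the 25th to the 75th percentile of all 20689 genes tested. Ctsz, Atp6v0a1 and Tfe3 lie above the 90th percentile of all genes (0.65), and the open points of the pump genes lie above 0, although 5 of the 15 pump genes are below 0 with quantile normalisation and 6 with the 75th percentile over detected probes.

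For the proton pump, 5 of 15 genes rose and none fell (33.3% upwards, against 18.7% of all genes). Their median log2 difference was 0.31, with a range of 0.12 to 0.96. The Atg5f/f;Vav mean was the higher one for 15 of 15 genes in the values given here, for 10 of 15 with quantile normalisation and for 9 of 15 with the 75th percentile over detected probes. For 10 of the 15 (66.7%) the signals were without overlap, against 56% of all genes. The median log2 signal of the pump genes stood at 1.93, 1.66 and 1.93 in controls and at 2.25, 2.18 and 2.36 in Atg5f/f;Vav cells. The methods' t-test called none of them after adjustment, but it called none of all 20689 genes tested either.

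In the V0 sector, 3 of 5 genes rose (60%, against 18.7% of all genes). Atp6v0a1, the subunit that couples the sectors and lines the proton path, had log2 signals of −0.10, −0.10 and −0.09 in controls and 0.29, 0.86 and 1.43 in Atg5f/f;Vav cells. The control arrays were nearly identical, while the Atg5f/f;Vav arrays differed among themselves by more than the rise. Its difference was 0.96 ± 0.27, a fold of 1.94 (adjusted p = 0.0349), and it ran from 0.67 to 1.24 with each array left out in turn. It passed with quantile normalisation (0.92) and not with the 75th percentile over detected probes (0.75, adjusted p = 0.0558). Of its 2 other tested probes, that at base 462 gave 0.96 and passed, and that at base 4530 gave 0.46 and did not. Each of these was designed to a different transcript record.

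Atp6v0c encodes the proteolipid of the rotating ring that carries the protons. Its log2 signals were 2.40, 2.36 and 2.67 in controls and 3.06, 2.85 and 3.22 in Atg5f/f;Vav cells, with no overlap. The rise was 0.56 ± 0.15, a fold of 1.48 (adjusted p = 0.0279), and a second probe gave 0.67 and passed. With quantile normalisation and the 75th percentile over detected probes it did not pass (0.32 and 0.36, adjusted p = 0.0823 and 0.0586). Atp6v0e, a small membrane subunit, was at 3.45, 3.29 and 3.55 in controls and at 3.91, 3.89 and 4.05 in Atg5f/f;Vav cells. Replicates of each group lay close together, and the rise was 0.52 ± 0.12, a fold of 1.44 (adjusted p = 0.0207). It passed with the 75th percentile over detected probes (0.32) and not with quantile normalisation (0.21, adjusted p = 0.128). A further probe at base 2737 gave −0.12 and did not pass. Atp6v0b and Atp6v0d1 differed by 0.29 and 0.12 with overlapping groups. The probes that represent the 3 genes lie on mm9 chromosome 11 from 100924969 to 100925028, chromosome 17 from 24301214 to 24301273 and chromosome 17 from 26836332 to 26836391.

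In the V1 sector, 2 of 8 genes rose (25%, near the 18.7% of all genes). Atp6v1e1, part of the stalks that hold the ATP-cleaving head, had log2 signals of 1.93, 1.66 and 1.93 in controls and 2.25, 2.23 and 2.48 in Atg5f/f;Vav cells. The groups did not overlap, and the rise was 0.48 ± 0.13, a fold of 1.39 (adjusted p = 0.0324). Atp6v1h, which regulates the join between the sectors, was at 1.95, 1.84 and 2.01 in controls and at 2.29, 2.18 and 2.36 in Atg5f/f;Vav cells. It rose by 0.34 ± 0.11, a fold of 1.27 (adjusted p = 0.0485), again with no overlap. Its probe at base 1300 gave 0.50 and passed, while a dim one at base 1653 gave −0.52 and did not. With quantile normalisation the differences of Atp6v1e1 and Atp6v1h were 0.29 and 0.16, with the 75th percentile over detected probes 0.27 and 0.14, and neither passed. The representing probes are on mm9 chromosome 6 from 120745623 to 120745682 and chromosome 1 from 5152352 to 5152411.

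The other 6 V1 genes had differences of 0.13 to 0.43 and did not pass. Atp6v1c1, a stalk subunit, was the highest of them at 0.43 ± 0.15 (adjusted p = 0.0672). Atp6v1a and Atp6v1b2, which form the catalytic head, differed by 0.14 and 0.17. Of the 2 accessory proteins, Atp6ap1 had log2 signals of −0.51, −0.57 and −0.09 in controls and 0.40, −0.10 and 0.14 in Atg5f/f;Vav cells. Control replicate 3 overlapped the Atg5f/f;Vav range. The difference was 0.54 ± 0.18 (adjusted p = 0.0601), whereas its dimmer probe gave 0.69 and passed (adjusted p = 0.0442). Atp6ap2, the prorenin receptor, differed by 0.31 ± 0.16 (adjusted p = 0.167).

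Within the TFEB family, Tfe3 rose and Tfeb and Mitf did not pass on the probes that represent them. Log2 signals of Tfe3 were 1.78, 1.81 and 1.95 in controls and 2.41, 2.79 and 3.18 in Atg5f/f;Vav cells. Every Atg5f/f;Vav array was well above the controls, with a wider spread among them. The rise was 0.95 ± 0.20, a fold of 1.93 (adjusted p = 0.0183), and it passed with each alternative scaling and without a filter on dim probes. The probe is at base 3357 of the transcript, on mm9 chromosome X from 7352259 to 7352318, and the other Tfe3 probe was not well above background on any array.

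Tfeb was at −0.89, −0.79 and −1.06 in controls and −1.28, −1.04 and −1.05 in Atg5f/f;Vav cells, with overlapping groups. The probe that represents Tfeb was designed to a predicted transcript. The difference was −0.21 ± 0.13 (adjusted p = 0.225), and the other 3 probes gave −0.35 (without overlap), −0.12 and 0.10, none of which passed. With the 75th percentile over detected probes, Tfeb passed downwards. For Mitf the log2 signals were −0.88, −1.29 and −0.81 in controls and −1.02, −1.03 and −1.42 in Atg5f/f;Vav cells, and the difference of −0.17 ± 0.18 did not pass (adjusted p = 0.489). Its 3 dimmer probes, at bases 2038, 1614 and 1240, gave −0.44, −0.46 and −0.62, each without overlap and each past the threshold (adjusted p = 0.0242, 0.0355 and 0.0325). These bases are counted along 3 different transcript records, so they are not positions on a single mRNA. The mean of the 4 Mitf probes passed downwards too.

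**Figure D3:**
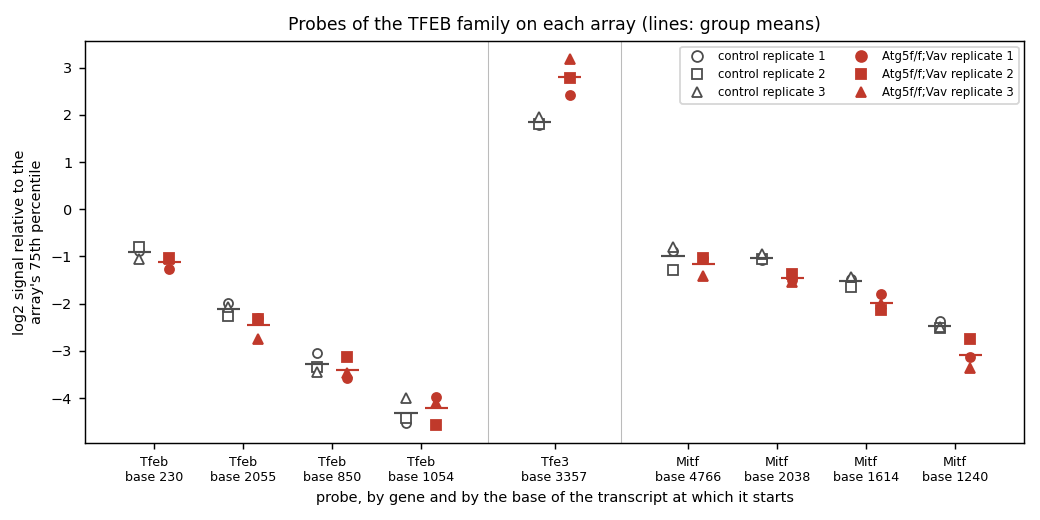
Log2 signal relative to the array's 75th percentile for each tested probe of Tfeb, Tfe3 and Mitf. Labels give the base at which a probe starts in its own transcript record, which can differ between probes of a gene. Open grey symbols are control arrays, filled red symbols are Atg5f/f;Vav arrays, and short lines are group means (n = 3 arrays each). The groups are apart for the Tfe3 probe and for the Mitf probes at bases 2038, 1614 and 1240, narrowly apart for the Tfeb probe at base 2055, and overlap for the Mitf probe at base 4766 and the Tfeb probes at bases 230, 850 and 1054.

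Read against the promoter letters, 3 of the 12 genes with CACGTG rose, namely Lamp1, Ctsd and Atp6v0e, and the other 9 did not pass. Genes with a window that rose numbered 10, so 30% of them had CACGTG, against 36% of the 25 that did not pass. Of the 7 genes with TCACGTGA, Ctsd and Atp6v0e rose, while Mcoln1, Ctsa, Gla, Atp6v0d1 and Atp6v1a had differences of −0.11 to 0.27 and did not pass. Lamp2, Ctss, Ctsz, Atp6v0a1, Atp6v0c, Atp6v1e1 and Tfe3 rose with neither in the window. For Ctsh and Atp6v1h no window was held.

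Other genes of the same compartment were counted from lists drawn up by function. Among 52 further lysosomal genes tested, 9 rose and 6 fell (17.3% and 11.5%, near the 18.7% and 15.3% of all genes), with a median log2 difference of 0.0045. Tmem192, a lysosomal membrane protein, rose by 0.73, while Ctsf and Ids, a cathepsin and iduronate sulfatase, had differences of −1.14 and −0.62 and fell. Among other pump subunits, isoforms and assembly factors, 8 of 15 were bright enough to test, 3 rose and 2 fell (37.5% and 25%). The assembly factors Vma21 and Tmem199 rose by 0.77 and 0.49, and Atp6v1g2, the neuronal form of subunit G, and Dmxl2, which was well above background on 1 of the 3 Atg5f/f;Vav arrays, had differences of −1.34 and −0.87 and fell. Of 26 genes in the control of TFEB at the lysosome, 4 rose and 3 fell (15.4% and 11.5%). Mtor and Rragc, the kinase of mTORC1 and a GTPase that recruits it to lysosomes, rose by 0.56 and 0.53, and Rragb had a difference of −0.93 and fell. Ppargc1a, a coactivator that TFEB induces, is counted among these falls. It was well above background on 3 control and 0 Atg5f/f;Vav arrays. It entered the test only through the controls, so its place in the count is no support for a fall.

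Markers of other cell types also differed between the arrays, and their part in these results was not tested. Their counts stand beside the same 18.7% of all genes upwards and 15.3% downwards. Of 10 macrophage and monocyte markers tested, 3 rose and 2 fell (30% and 20%), and the summed signal of the 17 on the array (in units of the array's 75th percentile) was 46.2 to 48.8 in controls and 44.1 to 50.5 in Atg5f/f;Vav cells. Mrc1 and Timd4 were among those not above background on any array. Mpeg1, Ccr2 and Ly6c2 rose by 1.77, 0.97 and 0.56, Lyz2 and Cd5l fell by 0.86 and 1.95, and Csf1r was higher without overlap by 0.33 and did not pass (adjusted p = 0.138). Lyz2 and Ly6c2 made up 79.2% to 90.6% of the sum, so it shows little of the other markers. Ctss, Ctsz, Ctsd and Lamp1 are known to be abundant in macrophages. Of 10 neutrophil granule markers, 8 fell (80%), and their sum was 80.1 to 167 in controls and 38.4 to 68.2 in Atg5f/f;Vav cells. Of 12 erythroid markers, 4 rose and 4 fell (33.3% each), with sums of 238 to 528 and 95.9 to 150, of which Hba-a1 made up 51.7% to 91.7%. Car1, Klf1, Tfrc and Epor, which are known from early erythroid cells, rose by 3.80, 2.95, 2.15 and 2.08, whereas Hba-a1, Hbb-b1, Slc4a1 and Alas2, of later ones, fell by 2.26, 1.92, 2.29 and 2.07. Among the Atg5f/f;Vav arrays, these 4 early genes were lowest on replicate 1 and highest on replicate 3. So were 5 of the 11 genes that rose, namely Lamp2, Ctsd, Ctsz, Atp6v0a1 and Tfe3, and 10 of the 43 in all. How many of all genes tested follow this order was not counted. A link between the rises and the erythroid genes was not tested. Of 8 stromal markers tested, 4 fell (50%), with sums of 10.7 to 41.1 and 7.16 to 9.89. Among these falls, Col1a1, Col1a2 and Sparc were high on control replicates 2 and 3 only. Their log2 signals on control replicates 1, 2 and 3 were −4.14, 3.23 and 2.95, −0.90, 3.47 and 2.90, and 0.63, 3.36 and 3.15. Col1a1 was well above background on 3 control and 0 Atg5f/f;Vav arrays. It entered the test only through the controls, so it is no support for a fall. Of 10 mast cell, basophil and eosinophil markers 1 rose and 3 fell, and of 7 megakaryocyte markers 1 and 3. The megakaryocyte falls include Ppbp, which was well above background on 3 control and 0 Atg5f/f;Vav arrays. Ppbp entered the test only through the controls, so it is no support for a fall. Of 6 dendritic cell markers 1 rose and 1 fell, of 8 B cell markers 1 and 0. Of 5 T and NK cell markers 0 rose and 0 fell, and of 10 LSK markers 1 and 4.

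**Figure D4:**
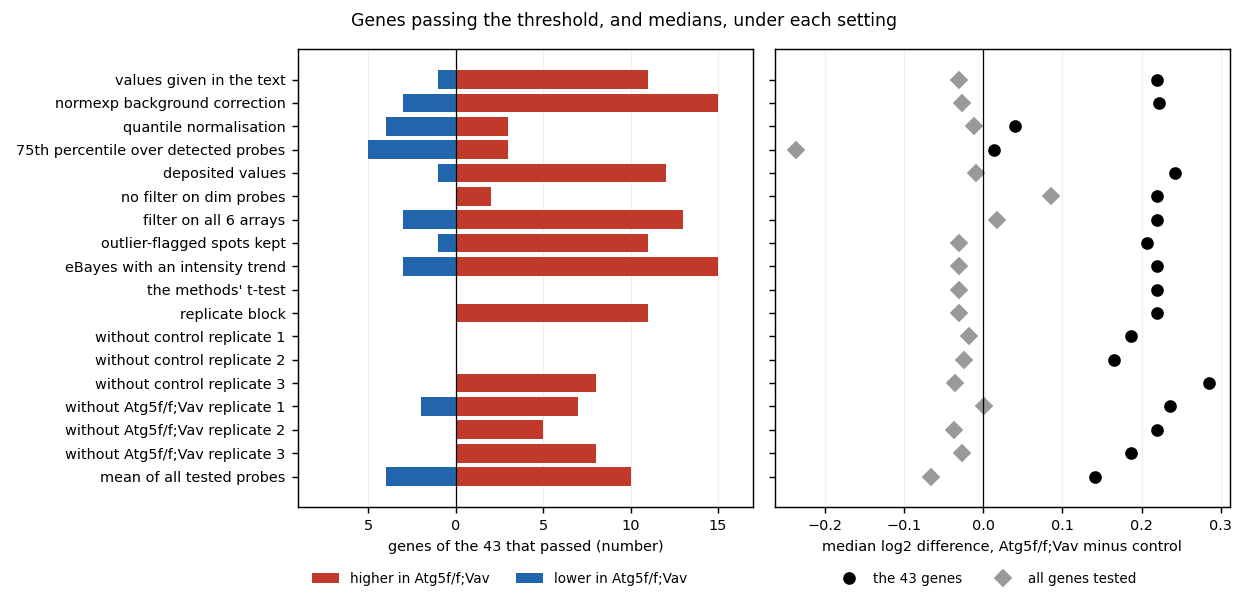
Left, the number of the 43 genes that passed an adjusted p of 0.05, higher (red, to the right) or lower (blue, to the left) in Atg5f/f;Vav cells, under each alternative setting. Right, the median log2 difference of the 43 genes (black circles) and of all genes tested (grey diamonds). The counts fall to 0 without control replicate 1 or 2 and with the methods' t-test after adjustment, and the median of the 43 genes is 0.039 with quantile normalisation and 0.014 with the 75th percentile over detected probes.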

How the data were processed

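LSK cells from 3 control and 3 Atg5f/f;Vav samples were profiled on 1-colour Agilent arrays whose 60-mer probes carry mm9 positions. For these, the authors deposited the intensity of every spot, which Agilent Feature Extraction 12.0.3.1 had corrected for background, and normalised signal values, made by dividing the intensities of an array by their 75th percentile. From the intensities, log2 values minus each array's 75th percentile over spots that are not controls were computed. Outlier-flagged spots were left out (64 to 81 per array), no spot was saturated, and spots of a probe were averaged. The 32074 probes that were well above background on 3 or more of the 6 arrays entered limma 3.58.1 (R 4.3.3; lmFit, then eBayes; 2-sided), and p-values were adjusted over them by Benjamini-Hochberg, with a threshold of 0.05. A gene is represented by its probe with the highest mean signal. The steps were tested on simulated data.

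Values on every array are given for Tfeb, Tfe3, Mitf, Lamp1, Lamp2 and, in each other role, for the genes past the threshold, up to 3 by size in each direction. Genes not past it are given by ranges, with values where the difference exceeded 0.5. Cd63 and the other genes named were added after their values were seen. Of the other lists, at most 2 genes each way are named, apart from cell type markers, which were named after their values were seen. Some genes of these lists are not reported here. The 43 genes and all lists were chosen with earlier results of these data known. The alternatives tried were quantile normalisation, scaling to the 75th percentile of detected probes, normexp background correction (offset 50), the deposited signal, other filters on dim probes, outlier-flagged spots kept, an intensity trend, the methods' t-test, a replicate block, each array left out and the mean of a gene's probes. Array depth cannot be counted, and the number of arrays limits the precision.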

Additional observations from a re-analysis of the deposited data

How the results depend on the processing

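All alternatives kept the sign of the 12 genes that passed. Of the 43 genes, 11 passed upwards and 1 downwards (5 and 1 of the membrane proteins and enzymes, 5 and 0 of the pump genes) with 11024 probes called in all. With normexp, a filter on all 6 arrays and an intensity trend, 15, 13 and 15 genes passed upwards, where 4343, 4136 and 4561 of all genes did. Downwards, 3 genes passed with each of them (3 of the membrane proteins and enzymes each time), where 3344, 2859 and 3478 of all genes did. With the deposited values 12 and 1 genes passed, where 4178 and 2884 of all genes did. With quantile normalisation 3 genes passed upwards and 4 downwards (1 and 4 of the membrane proteins and enzymes, 1 pump gene upwards), and the median was 0.039. With the 75th percentile over detected probes these were 3 and 5 (1 and 4, and 1 pump gene), and the median was 0.014. Of all 20689 genes tested, 2990 and 2323 passed with quantile normalisation, and 2382 and 5998 with the 75th percentile over detected probes. Without a filter on dim probes 4538 probes were called and 2 and 0 genes passed (1 and 0, and 0 pump genes). Of all 36693 genes tested without that filter, 1615 and 1201 passed. The methods' t-test at its own threshold gave 15 genes upwards and 1 downwards, and 0 genes and 0 probes after adjustment. The share of all genes past that unadjusted threshold is not given, so the 15 and 1 show nothing particular to the 43 genes. With the mean of a gene's tested probes 10 genes passed upwards and 4 downwards (3 of the membrane proteins and enzymes downwards, and 3 pump genes upwards). Of all 20693 genes tested that way, 3456 and 3541 passed. The cause of these shifts was not tested.

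With each array left out, 251 to 10304 probes were called. The genes that passed numbered 0 to 8 upwards and 0 to 2 downwards, of which 0 to 4 and 0 to 2 were membrane proteins and enzymes and 0 to 3 (upwards) pump genes, and the median was 0.17 to 0.29.

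Deviations from the group means correlated at −0.07, 0.19 and 0.11 between arrays with the same replicate number, so the numbers were not taken as pairs. With the replicate number as a block, 11 genes passed upwards, 10 of them as before, and 0 downwards, 0 of the membrane proteins and enzymes among them. Slide and scan could not be fitted as blocks, since there was 1 of each.

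Signs changed only for genes that had not passed. With normexp, Tpp1 was at −0.00075. With quantile normalisation, log2 differences were −0.030 for Scarb2, −0.049 for Ctsa, −0.22 for Tpp1, −0.056 for Gaa, −0.19 for Glb1, −0.024 for Atp6v0d1, −0.10 for Atp6v1b2, −0.12 for Atp6v1d, −0.095 for Atp6v1f and −0.15 for Atp6v1g1. With the 75th percentile over detected probes they were −0.062 for Scarb2, −0.10 for Ctsc, −0.20 for Tpp1, −0.17 for Glb1, −0.18 for Lipa, −0.075 for Psap, −0.088 for Atp6v0d1, −0.065 for Atp6v1a, −0.038 for Atp6v1b2, −0.077 for Atp6v1d, −0.012 for Atp6v1f and −0.042 for Atp6v1g1. With the mean of all tested probes they were −0.44 for Ctsc, which then passed, −0.0012 for Ctsl, −0.13 for Gaa, −0.17 for Glb1 and −0.10 for Atp6v1b2. With each array left out, Glb1 ran from −0.026 to 0.13, Lipa from −0.057 to 0.084, Mcoln1 from −0.16 to 0.022 and Tpp1 from −0.031 to 0.089. With 3 arrays per group, rises smaller than those that passed may be missed.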
